A study of Drosophila melanogaster with 84 samples.

Results

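The nuclear-encoded subunits of the oxidative phosphorylation machinery were followed in the abdominal fat body of adult female Drosophila melanogaster. Members were all rows of the TPM table (transcript abundance per unit length, scaled to one total in each library) of the day 5 experiment whose symbol began with ND-, UQCR-, COX followed by a digit, or ATPsyn, together with SdhA, SdhB, SdhC, SdhD and RFeSP. The rule uses names only and gave 79 of the 23932 genes in the table. By prefix, 40 belong to complex I, 4 to complex II, 9 to complex III, 11 to complex IV and 15 to complex V.

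The 84 libraries came from mated w1118 females raised in cycles of 12 h light and 12 h dark. Per the labels they were about 3 days old when placed for 5 days at the test temperature and diet in the same cycle. The study's methods describe a further stretch of entrainment on 15% SY before the temperature shift, so the flies were older at the shift than that age. Wild-type flies were held at 18 °C on 15% sucrose-yeast diet (15% SY), at 25 °C on 15% SY, or at 25 °C on the diluted 5% SY diet, with 24 libraries each: 12 time points 2 h apart (ZT2 to ZT24 in the sample titles, hours after lights on) and 2 replicates. Clk-Jrk flies, which carry a dominant mutation of the clock activator Clock and had been backcrossed 7 times to w1118, were held at 25 °C on 15% SY and gave 12 libraries at 6 time points 4 h apart, also with 2 replicates. All groups therefore share the w1118 background and earlier rearing on yeast-cornmeal-molasses food. Each library held fat tissue with the attached epidermis of 10 flies, so it also held cells other than fat cells. Light and dark hours were sampled in the same working day from 2 incubators with opposite light schedules, and an effect of the incubator and an effect of light or dark cannot be told apart. The labels do not say whether the replicates came from separate cultures, so p-values measure the spread between these libraries only. Read depth is unknown, since TPM values keep no total of reads.

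Oxidative phosphorylation moves electrons from NADH (complex I, NADH dehydrogenase) and from succinate (complex II, succinate dehydrogenase) through complex III (cytochrome bc1) to complex IV (cytochrome c oxidase). The protons pumped on the way drive complex V, the ATP synthase. Most subunits are encoded in the nucleus and imported, while mitochondrial DNA encodes a small hydrophobic core of complexes I, III, IV and V, so both genomes must supply parts of each of those machines. Complex II is entirely nuclear-encoded and is also an enzyme of the citric acid cycle. The fly fat body stores fat and glycogen and secretes yolk and storage proteins.

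The labelled tissue and genotype were checked first. The summed level of 10 fat body markers ranged from 11364 to 171775 TPM over the libraries, while testis and neuron marker sums did not exceed 5.57 and 24.8 TPM. The yolk protein genes dominate this sum. At 18 °C the medians of Yp1, Yp2 and Yp3 were 19280, 16080 and 16026 TPM, and the next highest, FASN1, had 816 TPM. Wherever the fat body sum is given, it mainly follows these 3 genes. Ovary marker sums ranged from 1.87 to 3758 TPM and gut sums from 6.46 to 8676 TPM, so the marker levels of these organs differed widely between libraries. The clock gene timeless (tim) cycled with relative amplitudes of 73.4%, 78.6% and 89.6% of its mean in the wild-type groups at 18 °C, at 25 °C and on 5% SY. In Clk-Jrk tim lay between 1.57 and 5.70 TPM, below every wild-type library (lowest 9.56 TPM). The mutant Clk RNA is still transcribed, with a median of 3.92 TPM against 4.50 TPM in the 24 wild-type libraries at 25 °C on 15% SY, so its level does not check the label. Of the libraries, 3 stood apart: wild type at 25 °C, replicate 1, ZT4 (median correlation with its group 0.879), wild type on 5% SY, replicate 1, ZT2 (members summing to 13826 TPM, the lowest of all), and Clk-Jrk, replicate 2, ZT22 (mitochondrially encoded subunits at 5571 TPM, the lowest of all). They were picked after the values were seen, and counts without them are given where they moved.

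Of the 79 members, 62 passed the filter (a median above 5 TPM in at least 1 group) and were tested: 33 of complex I, 4 of complex II, 7 of complex III, 7 of complex IV and 11 of complex V. Over the 84 libraries the lowest median among the 62 was the 68.2 TPM of SdhA. The 17 members that did not pass included all 14 L paralogs, which are duplicates named after a member with the suffix L and are known in flies mainly from the testis. In 13 of the 14, the highest value in any library was 1.98 TPM or less, and ND-B14.5AL and ATPsynCF6L were at 0 in all 84 libraries. The exception was UQCR-11L, present in every library with a median of 2.47 TPM and a maximum of 4.59 TPM. COX6AL, an L paralog of a gene with another name (levy), had a median of 2.50 TPM and was also present in every library. ATPsynepsilonL had a median of 0.3 TPM. The last untested member, ND-B8, the fly counterpart of an accessory subunit of mammalian complex I, had a median of only 0.26 TPM and a maximum of 5.83 TPM, far below the other complex I subunits. It overlaps exons of Gs1l, and the reads were counted without strand, so its level is uncertain. In all, 33 of the 62 tested members share exon bases with another gene and carry the same reservation.

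The median subunit of each complex stood in the same order in all 4 groups, from complex II through I, III and V up to complex IV. TPM is a level per unit length, so subunits can be set side by side. Over all libraries the median subunit stood at 86.2 TPM in complex II, 171 TPM in complex I, 303 TPM in complex III, 460 TPM in complex V and 579 TPM in complex IV. ATPsynC, the c subunit that forms the rotor ring of the ATP synthase in several copies, was the highest of all members with a median of 2048 TPM. It lies on 3R (31216145 to 31219630, BDGP6, minus strand). ATPsynbeta, the catalytic subunit, followed with 1457 TPM, and lies on chromosome 4 (1031484 to 1034917). ATPsyndelta of the central stalk was the lowest of complex V with 334 TPM. In complex I the range ran from ND-18 (78.3 TPM), the counterpart of an accessory subunit needed for assembly in mammals, to ND-MLRQ (826 TPM), which lies on 3L (23339326 to 23345936) and whose mammalian counterpart has been reassigned to complex IV. The 7 nuclear-encoded core subunits of complex I, which include those that carry the flavin and the iron-sulfur clusters, ranged from 110 to 215 TPM. The 26 accessory subunits ranged more widely, from 78.3 to 826 TPM.

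In complex II SdhC, which anchors the enzyme in the membrane, was highest with 203 TPM. The iron-sulfur subunit SdhB stood at 99.9 TPM, the other anchor SdhD at 72.6 TPM and the flavoprotein SdhA at 68.2 TPM. In complex III UQCR-14 was highest (487 TPM) and UQCR-C2, a large core protein, lowest (167 TPM), with RFeSP, the Rieske iron-sulfur protein that hands electrons to cytochrome c1, in between at 239 TPM. In complex IV the levels ran from COX8 (362 TPM) to COX6B (612 TPM).

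**Figure D1:**
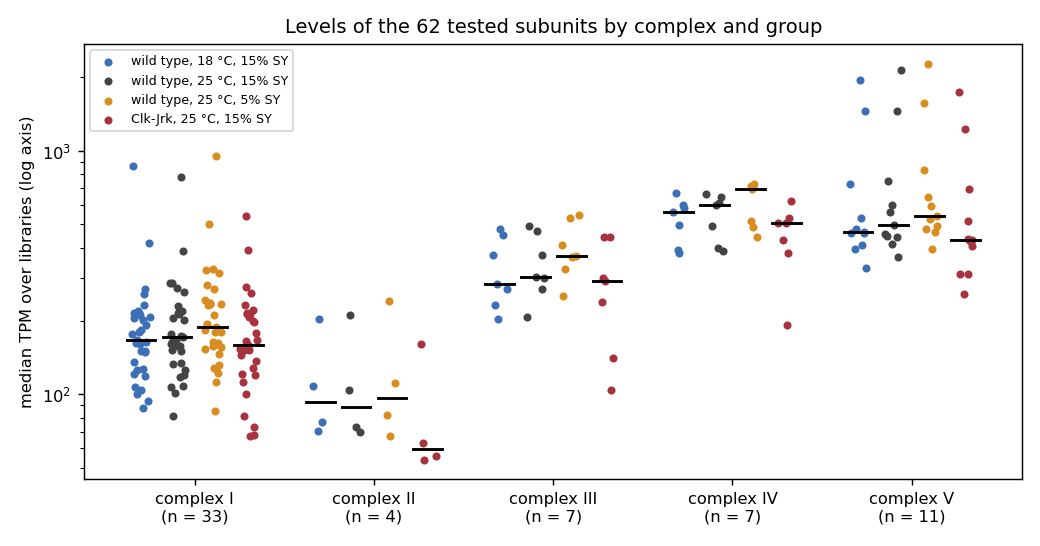
Median TPM over libraries (log axis) of each tested subunit, by complex and group; points are subunits, black lines the median subunit. Complex II subunits are lowest, with a median of 86.2 TPM over all libraries, and ATPsynC is highest at 2048 TPM.

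The members differed by replicate number. In all 3 wild-type groups the replicate 2 libraries held more of these transcripts than the replicate 1 libraries. The labels give no date or batch for the replicates, and the split was examined after it was seen in the data. In wild type at 25 °C on 15% SY the summed level of the 79 members was 16611 to 21181 TPM (median 18148) in replicate 1 and 22065 to 25002 TPM (median 23195) in replicate 2, with no overlap. On 5% SY it was 13826 to 22793 TPM (median 20285) in replicate 1 and 23100 to 29568 TPM (median 26702) in replicate 2, again with no overlap. At 18 °C it was 14231 to 22730 TPM (median 16843) in replicate 1 and 20156 to 21975 TPM (median 21315) in replicate 2, which overlapped. In Clk-Jrk the replicates overlapped, with 16068 to 19347 TPM (median 18047) and 15362 to 21226 TPM (median 18371).

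**Figure D2:**
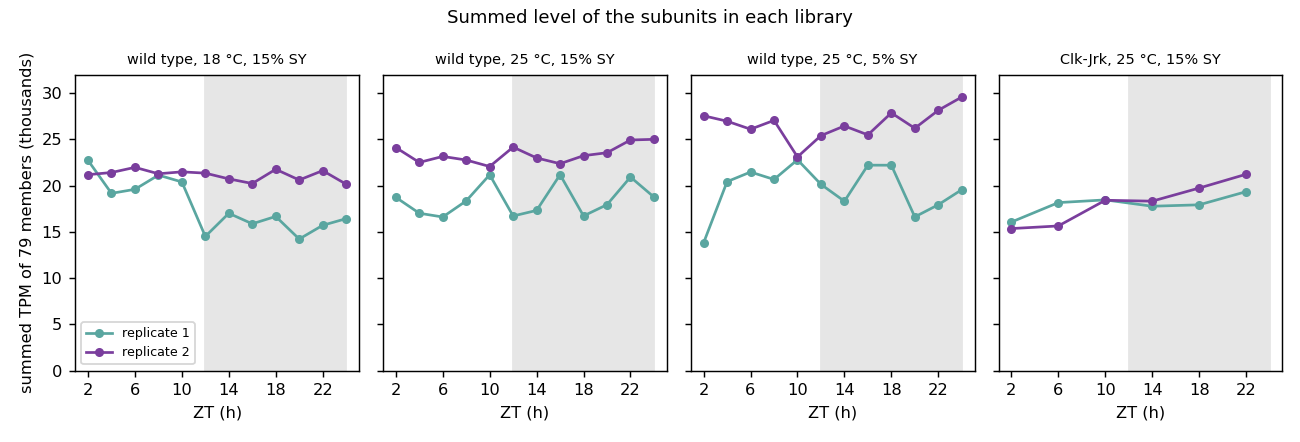
Summed TPM of the 79 members in every library against ZT in hours, 1 panel per group, with colours for the replicate number and grey for the dark phase. Replicate 2 lies above replicate 1 throughout in wild type at 25 °C on 15% SY (22065 TPM or more against 21181 TPM or less) and on 5% SY (23100 TPM or more against 22793 TPM or less), at 18 °C after ZT10 (20156 TPM or more against 17013 TPM or less), and not in Clk-Jrk.

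Gene by gene, the replicates were compared with limma's moderated test on log2(TPM + 1) with time point as a factor. At 25 °C on 15% SY 49 of the 62 members were higher in replicate 2 and 2 were lower (adjusted p below 0.05), against 12% higher and 27.6% lower among all 7242 genes tested. On 5% SY 53 were higher and 0 lower, against 8.24% and 54.7% of all genes. At 18 °C 46 were higher and 6 lower, against 14.5% and 31.6% of all genes. The median member was higher by 0.43, 0.56 and 0.44 on the log2 scale at 25 °C, on 5% SY and at 18 °C, while the median of all genes was -0.15, -0.31 and -0.10. In Clk-Jrk limma called 0 members in either direction (lowest adjusted p 0.798; 1 member at an unadjusted p below 0.05), as for all genes (0% higher, 0% lower; 5.43% at an unadjusted p below 0.05), and the median member differed by -0.02. All 12 replicate 2 libraries lay above all 12 replicate 1 libraries for 36 of 62 members at 25 °C (1.33% of all genes), for 18 on 5% SY (0.925%) and for 0 at 18 °C (0.525%). In Clk-Jrk the corresponding count was 0 members (0.152% of all genes).

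The gap differed from gene to gene, and the members shown for it were chosen after their values were seen. RFeSP (2L, 1612429 to 1614160) had 123 to 242 TPM (median 174) in replicate 1 and 301 to 376 TPM (median 334) in replicate 2 at 25 °C, a log2 difference of 1.00 ± 0.10 (SE; limma, adjusted p = 7.03e-06). Its differences on 5% SY and at 18 °C were 1.23 and 1.37, and in Clk-Jrk -0.15. UQCR-C2 (3L, 16584124 to 16586111) had 88.9 to 180 TPM (median 127) and 236 to 298 TPM (median 272), a log2 difference of 1.11 ± 0.10 (limma, adjusted p = 6.95e-06). ND-75, a core iron-sulfur subunit of complex I, had 59.8 to 97.5 TPM (median 80.5) in replicate 1 and 142 to 171 TPM (median 160) in replicate 2, a log2 difference of 1.03 ± 0.08. For each of these 3 genes every replicate 2 library at 25 °C exceeded every replicate 1 library.

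Other members had a small or a negative gap. UQCR-11, a small subunit of complex III (3L, 25120709 to 25126171), differed by -0.28 at 25 °C, by -0.49 at 18 °C and by 0.03 on 5% SY. ND-MLRQ differed by -0.15 at 25 °C and by -0.43 at 18 °C. ATPsynbeta differed by -0.02 at 25 °C and by -0.28 at 18 °C, and ND-49, the core subunit that helps form the ubiquinone site, by -0.02 and -0.25. Across the 62 members the gaps ranked alike in the 3 wild-type groups, which share no libraries, with Pearson correlations of 0.95 (18 °C and 25 °C), 0.93 (18 °C and 5% SY) and 0.93 (25 °C and 5% SY). The correlations with the gaps in Clk-Jrk were -0.18, -0.22 and -0.20. These are descriptions across genes, which are not independent replicates. Spearman's rho of the gap with exon length was 0.06, 0.09, -0.02 and -0.20 at 18 °C, at 25 °C, on 5% SY and in Clk-Jrk, and with the median TPM of the member it was -0.29, -0.23, -0.17 and 0.47.

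Several members without a positive gap lay on chromosome 4 or near the centromere of 3L. Both tested members on chromosome 4 (ATPsynbeta and ND-49) and all 3 beyond 23 Mb on 3L, near the centromere (ND-MLRQ, ND-AGGG and UQCR-11), had negative gaps at 18 °C and at 25 °C, compared with 4 and 2 of the 57 members elsewhere. At 25 °C the 5 values ran from -0.28 to -0.02, some of them close to no difference. On 5% SY these 5 genes lay between -0.08 and 0.13. A negative sign was common among all tested genes elsewhere, with 4401 of 7113 at 18 °C and 4865 of 7113 at 25 °C. Among all tested genes of these places the median gap at 25 °C was -0.54 for 69 genes on chromosome 4 and -0.62 for 30 genes of 3L beyond 23 Mb, against -0.15 for 7113 genes elsewhere. In Clk-Jrk the medians were -0.11, -0.08 and -0.10. These positions were chosen after the values were seen.

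**Figure D3:**
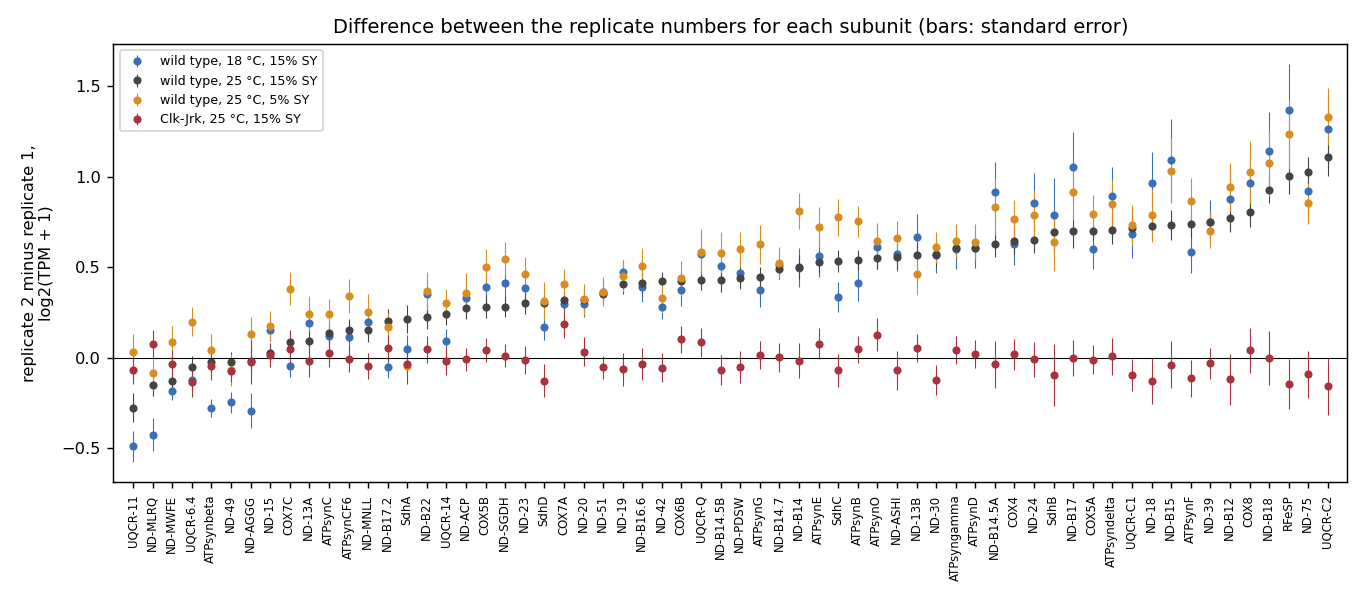
Replicate 2 minus replicate 1 on the log2(TPM + 1) scale for each of the 62 tested members in the 4 groups, with standard errors, ordered by the value in wild type at 25 °C. The 3 wild-type groups rank alike, up to 1.37 for RFeSP at 18 °C, while Clk-Jrk stays between -0.16 and 0.18.

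Tests of the difference in the gap between groups were run with a group by replicate term in limma. Between Clk-Jrk and wild type at the 6 shared time points 13 of 62 members differed, against 2.75% of all genes, all with a smaller gap in Clk-Jrk. Among them were UQCR-C2 (difference -1.27 ± 0.33), ND-75 (-1.07 ± 0.23) and ATPsynF (-0.84 ± 0.16). After median-of-ratios scaling 2 members passed, and without the 3 libraries that stood apart 20 passed. Between 18 °C and 25 °C 3 members differed (6.53% of all genes): ATPsynbeta, ND-B17.2 and ND-49, each with a gap lower by 0.22 to 0.26 at 18 °C. That count was 0 after median-of-ratios scaling and 1 without the 3 libraries. Between the diets 0 members differed (limma, lowest adjusted p 0.057; 9 at an unadjusted p below 0.05), against 11.8% of all genes, but 12 did after median-of-ratios scaling and 4 without the 3 libraries. The percentages of all genes come from the fits without this scaling and with all libraries. They cannot be set beside the alternative counts.

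Several other measures moved with the replicate number. The mitochondrially encoded subunits ran the other way: of 13 tested, 12 were lower in replicate 2 at 25 °C, 12 at 18 °C and 7 on 5% SY, with 0 higher, by a median log2 difference of -1.37, -1.33 and -0.59. Among all genes 27.6%, 31.6% and 54.7% were lower in the same order, so the count on 5% SY was near the share of all genes. The mitochondrially encoded sum in wild type at 25 °C was 59840 to 94518 TPM in replicate 1 and 29538 to 36230 TPM in replicate 2. The ratio of mitochondrially encoded to nuclear-encoded subunit TPM was thus 2.83 to 5.69 (median 4.16) in replicate 1 and 1.26 to 1.61 (median 1.38) in replicate 2 at 25 °C, 2.71 to 9.39 and 1.50 to 1.98 at 18 °C, and 1.40 to 6.29 and 1.10 to 1.41 on 5% SY. In Clk-Jrk the 2 ranges were 1.02 to 2.55 and 0.262 to 4.08. The summed fat body markers were 47028 to 89148 TPM and 79573 to 169061 TPM at 25 °C and 11364 to 52657 TPM and 54103 to 105858 TPM at 18 °C, but 57195 to 89709 TPM and 53278 to 98052 TPM on 5% SY, where the members' gap was widest. The oenocyte marker sum, made up mostly of Cyp4g1, had medians of 33879 TPM in replicate 1 and 24988 TPM in replicate 2 at 25 °C. The medians were 42941 and 30328 TPM at 18 °C, and 35824 and 31831 TPM on 5% SY. The muscle marker sum had medians of 6258 and 3659 TPM at 18 °C, 3280 and 3501 TPM at 25 °C, and 3620 and 4031 TPM on 5% SY. Their part in the gap was not tested. In these bulk samples fewer cells of a type and less RNA per cell cannot be told apart. The member counts of the comparisons that follow are also given within each replicate number. Their fits held no replicate term, so the gap adds to the spread of the members. Counts with such a term are given in the closing section.

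The effect of temperature was examined between 18 °C and 25 °C on 15% SY, with 24 libraries in each group. Of the 62 members 15 were lower at 18 °C and 4 were higher (limma, adjusted p below 0.05), against 28.5% lower and 22% higher among all genes. The share of members called, 30.6%, was below that of all genes, 50.5%, in this fit without a replicate term. The members' gap between replicate numbers widens their spread, so these shares cannot be compared as sizes of response. The median member stood at -0.16 and the median of all genes at -0.06, and 54 of 62 members had a negative difference. Of the calls 10 of the lower and 3 of the higher were in complex I.

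ND-19, the counterpart of a mammalian accessory subunit in the intermembrane space, fell most. It ranged from 77.8 to 159 TPM (median 135) at 18 °C and from 122 to 214 TPM (median 173) at 25 °C, a log2 difference of -0.45 ± 0.09 (SE, n = 24 per group; limma, adjusted p = 5.13e-05). It was lower at 18 °C in all 24 pairs matched for time point and replicate number, although the groups overlapped. ND-B14.5A (29.0 to 120 TPM against 62.6 to 142 TPM), an accessory subunit, fell by 0.41 and was higher at 18 °C in 1 of 24 pairs. ND-SGDH and ND-PDSW, accessory subunits of the membrane arm, both fell by 0.36. ATPsynD, of the peripheral stalk that holds the ATP synthase still, had 211 to 523 TPM (median 477) at 18 °C and 341 to 697 TPM (median 558) at 25 °C and fell by 0.34. ND-B14.5B fell by 0.29. All 6 were negative and passed in both replicate series.

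The 4 members that rose were ND-MLRQ, ND-AGGG, SdhA and ND-49. ND-MLRQ ranged from 724 to 1390 TPM (median 862) at 18 °C and from 657 to 1015 TPM (median 778) at 25 °C and rose by 0.21 ± 0.07 (limma, adjusted p = 0.017). ND-AGGG, an accessory subunit of the membrane arm, ranged from 334 to 644 TPM (median 419) and from 302 to 455 TPM (median 388) and rose by 0.20. ND-49 rose by 0.14 and SdhA by 0.14. The differences were larger in replicate 1, at 0.34 for ND-MLRQ, 0.33 for ND-AGGG, 0.25 for ND-49 and 0.23 for SdhA, than in replicate 2, where they were 0.07, 0.06, 0.02 and 0.06 in the same order.

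Within replicate 1 alone 8 members were lower and 4 higher (39.6% of all genes changed), and within replicate 2 alone 42 were lower and 0 higher (27.6% of all genes changed; 0 members higher also at an unadjusted p below 0.05). The median member was at -0.17 and -0.15 in the 2 series. After scaling by the median of ratios, 4 members were lower and 3 higher (31.2% and 24.3% of all genes). Muscle markers were higher at 18 °C (13 of 15, with a summed level of 3226 to 9503 TPM against 2300 to 5002 TPM). Their median log2 difference was 0.79 in replicate 1, where 8 members were lower, and 0.06 in replicate 2, where 42 members were lower. In addition, all 7 ovary markers were lower, and 4 of 9 fat body markers were lower, among them the yolk protein genes Yp1, Yp2 and Yp3, with 1 higher. The summed fat body list was 11364 to 105858 TPM at 18 °C and 47028 to 169061 TPM at 25 °C. Their part in the members' change was not tested.

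The diet comparison set 5% SY against 15% SY at 25 °C in wild type, and uses the same 15% SY libraries as the temperature comparison. All 8 members that changed were higher on 5% SY and 0 were lower (limma; 13 higher and 0 lower at an unadjusted p below 0.05), against 6.09% higher and 20.5% lower among all genes. The median member stood at 0.11 and the median of all genes at -0.11, and 60 of 62 members had a positive difference. The exceptions were in complex II, where SdhB stood at -0.02 and SdhA at -0.01.

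The 8 were 5 subunits of complex I and 3 of complex III. ND-AGGG ranged from 282 to 638 TPM (median 498) on 5% SY and from 302 to 455 TPM (median 388) on 15% SY, a log2 difference of 0.33 ± 0.06 (n = 24 per group; limma, adjusted p = 0.00030). UQCR-11 ranged from 186 to 572 TPM (median 371) and from 247 to 432 TPM (median 301), a difference of 0.29 ± 0.07. ND-MLRQ ranged from 655 to 1536 TPM (median 953) and from 657 to 1015 TPM (median 778), a difference of 0.29 ± 0.05. ND-AGGG and ND-MLRQ were higher on 5% SY in 23 of 24 matched pairs and UQCR-11 in 21. UQCR-6.4 rose by 0.20, ND-49 by 0.18, ND-MNLL by 0.18, UQCR-14 by 0.18 and ND-MWFE by 0.16.

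The number of calls differed by replicate number. Among the members called with all libraries, the rise in replicate 2 minus that in replicate 1 ran from -0.05 (ND-49) to 0.31 (UQCR-11). It was 0.07 for ND-MLRQ, and 0 of the 62 members passed the test of that difference given above. Within replicate 2 alone 52 members were higher and 0 lower on 5% SY (54.5% of all genes changed), and the median member stood at 0.16. Within replicate 1 alone limma called 0 members (3 higher and 0 lower at an unadjusted p below 0.05; 0.11% of all genes changed), and the median member stood at 0.06, with 53 of 62 positive. Median-of-ratios scaling moved the median of all genes from -0.11 to 0.01 and that of the members from 0.11 to 0.23, and then 13 members were higher and 0 lower (14.7% and 19% of all genes). On 5% SY 5 of 15 muscle markers were higher (summed level 2547 to 5675 TPM against 2300 to 5002 TPM) and 5 of 7 ovary markers were lower (1.87 to 3758 TPM against 69.9 to 3687 TPM). Of 6 hemocyte markers 3 were higher, and of 9 fat body markers 1 was lower. The fat body marker sum had a mean of 73549 TPM on 5% SY and 59812 TPM on 15% SY in replicate 1, but 78616 and 130409 TPM in replicate 2, with median log2 differences of the list of 0.34 and -0.46. The part of these tissues was not tested.

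The genotype comparison set the 12 Clk-Jrk libraries against the 12 wild-type libraries at the same 6 time points, at 25 °C on 15% SY, and so draws on the same wild-type group as the other comparisons. All 4 subunits of complex II and 6 of 11 of complex V were lower in the mutant. Of the 62 members 19 were lower and 1 was higher (limma, adjusted p below 0.05), against 36.1% lower and 9.67% higher among all genes. The share called, again without a replicate term, was 32.3% of members and 45.7% of all genes. The median member stood at -0.14, the median of all genes at -0.22. In complexes III, IV and I, 3 of 7, 3 of 7 and 3 of 33 members were lower.

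COX8, a small subunit of cytochrome c oxidase, ranged from 98.3 to 278 TPM (median 192) in Clk-Jrk, with a mean of 189 TPM against 380 TPM in the matched wild type. On the log2 scale it fell by 1.00 ± 0.17 (n = 12 per group; limma, adjusted p = 0.00021), with Clk-Jrk lower in all 12 matched pairs, although the groups overlapped. UQCR-C2 had a mean of 103 ± 35.7 TPM against 202 ± 79.2 TPM (SD, n = 12) and fell by 0.93. RFeSP had 137 ± 50.5 TPM against 256 ± 89.3 TPM and fell by 0.91. ND-B14.5A (65.0 against 113 TPM) fell by 0.84 and ATPsynF, a small membrane subunit of the ATP synthase, fell by 0.70 (251 against 421 TPM). In complex II SdhB fell by 0.80, SdhD by 0.44, SdhA by 0.37 and SdhC by 0.37.

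ND-MLRQ was the only member whose groups did not overlap (2.2% of all genes): 473 to 647 TPM (median 537) in Clk-Jrk, below every matched wild-type library, a log2 difference of -0.56 ± 0.08 (limma, adjusted p = 1.9e-05). The one member that rose was ND-MNLL, an accessory subunit (X, 7893053 to 7893798). It had 157 ± 13.5 TPM in Clk-Jrk and 134 ± 15.9 TPM in wild type (SD, n = 12), a log2 difference of 0.23 ± 0.06 (limma, adjusted p = 0.0057), and was higher in all 12 matched pairs.

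The calls differed between the replicate series. Within replicate 1 alone 2 members were lower (ND-MLRQ by 0.71 and UQCR-11 by 0.43) and 0 higher (4 higher at an unadjusted p below 0.05; 10.2% of all genes changed), and the median member stood at 0.05. Within replicate 2 alone 35 were lower and 0 higher (0 higher at an unadjusted p below 0.05; 37.8% of all genes changed), and the median member stood at -0.34. Of the 62 members, 31 had the same sign in both series. COX8 was at -0.64 and -1.37, UQCR-C2 at -0.29 and -1.56, SdhB at -0.42 and -1.19, and ND-MNLL at 0.34 and 0.12 in replicates 1 and 2. All 4 members of complex II were negative in both series.

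Scaling also mattered. The median of ratios moved the median of all genes from -0.22 to 0.01 and that of the members from -0.14 to 0.10, and then 8 members were higher and 7 lower (22.6% and 17.4% of all genes). The 8 were ND-51, ND-23, ND-20, ND-49, ND-AGGG, ND-B14.5B and ND-MNLL of complex I and COX7A of complex IV. COX8, UQCR-C2, RFeSP, ND-B14.5A, SdhB, ATPsynF and ND-MLRQ were the 7 lower, with log2 differences from -0.32 (ND-MLRQ) to -0.76 (COX8), whereas SdhA, SdhC and SdhD did not pass on that scale. Muscle markers were lower in Clk-Jrk (13 of 15, or 3 of 15 after median-of-ratios scaling; summed level 1774 to 3573 TPM in Clk-Jrk and 2300 to 5002 TPM in the 24 wild-type libraries), all 4 tested Malpighian tubule markers were lower (summed level 1.94 to 105 TPM against 43.5 to 239 TPM), and 5 of 9 fat body markers were higher (106965 to 171775 TPM against 47028 to 169061 TPM). The part of these tissues in the members' change was not tested.

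**Figure D4:**
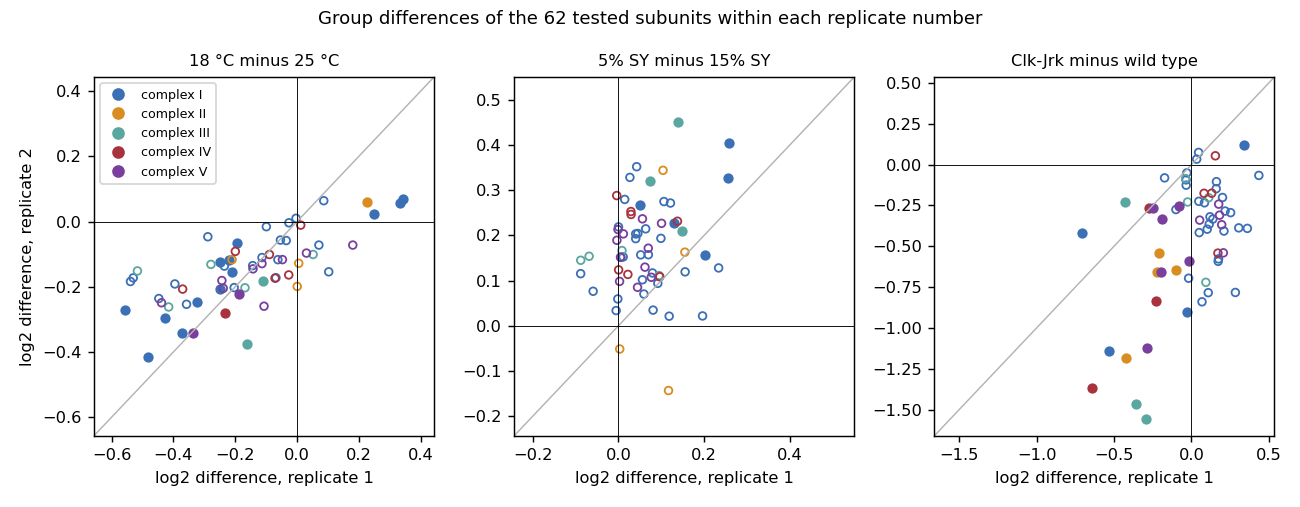
Log2 differences of the 62 tested members within replicate 1 (horizontal) and replicate 2 (vertical) for the 3 comparisons, coloured by complex; filled points passed the threshold with all libraries, and the grey line marks equal differences. Temperature points are mostly negative in both series, diet points spread upward in replicate 2 with 52 called there and 0 in replicate 1, and genotype points reach -1.56 in replicate 2, with 35 lower there and 2 lower in replicate 1.

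Daily rhythms were examined by harmonic regression on TPM, which fits a 24-h cosine wave, with an F-test p below 0.1 taken as cycling. These fits pooled both replicate series and held no replicate term, and the counts that moved with one are given in the closing section. In wild type the series differed, so the pooled amplitudes do not describe each series. At 18 °C 12 of 62 members cycled, compared with 29.9% of all genes. At 25 °C 4 cycled on 15% SY (18.9% of all genes) and 3 on 5% SY (9.71%). In Clk-Jrk, with 12 libraries, 31 cycled (17% of all genes). With Benjamini-Hochberg adjustment over all genes 0 members passed 0.05 in any group (harmonic F-test; 9, 3, 2 and 19 members at an unadjusted p below 0.05 at 18 °C, at 25 °C, on 5% SY and in Clk-Jrk).

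At 18 °C all 12 cycling members peaked in the day, between ZT1.74 and ZT6.91. ATPsynC had the smallest p. Its values were 1404 to 2325 TPM in the 24 libraries, with an amplitude of 185 ± 52.0 TPM (SE), 9.61% of the mean, and a peak at ZT6.91 ± 1.07 h (p = 0.0069, adjusted p = 0.086, n = 24). COX7C, a small subunit of complex IV, had an amplitude of 42.1 TPM and a peak at ZT2.50, and ATPsynCF6, of the peripheral stalk, 45.5 TPM and ZT5.69. In replicate 1 the members' sum was 19168 to 22730 TPM at ZT2 to ZT10 and 14231 to 17013 TPM from ZT12 to ZT24, without overlap, while replicate 2 held 21183 to 21975 TPM and 20156 to 21765 TPM. This cut is not the end of the light phase, which was set at ZT12. The ZT12 library of replicate 1 had 14513 TPM, so a cut after it would leave an overlap. Alone, replicate 1 gave 54 cycling members (32.8% of all genes) and replicate 2 gave 4 (24.3%), with 3 shared. The summed fat body markers of replicate 1 were 17113 to 52657 TPM at ZT2 to ZT10 and 11364 to 20465 TPM later, and the mitochondrially encoded sum was 61646 to 82552 TPM and 76661 to 133651 TPM. Their part was not tested.

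At 25 °C on 15% SY ATPsynbeta, ND-13A, ND-MLRQ and ND-49 cycled, with peaks between ZT20.7 and ZT23.5. ATPsynbeta, the clearest, ranged from 1248 to 1794 TPM with an amplitude of 115 ± 31.8 TPM, 7.84% of its mean, and peaked at ZT23.5 ± 1.05 h (p = 0.0061, adjusted p = 0.288, n = 24). On 5% SY ND-MLRQ (amplitude 155 ± 48.9 TPM, ZT21.7), UQCR-11 (53.5 ± 20.1 TPM, ZT21.8) and ATPsynbeta (153 ± 59.3 TPM, ZT23.7) cycled. ATPsynbeta and ND-MLRQ thus passed in both 25 °C wild-type groups. Alone, replicate 1 and replicate 2 gave 0 and 20 cycling members on 15% SY (10.7% and 11.6% of all genes), with 0 shared, and 24 and 34 on 5% SY (12.9% and 14.4%). On 5% SY 15 were shared, but the mean peak over the 62 members was ZT11.7 in replicate 1 and ZT22.9 in replicate 2. Without the 3 libraries that stood apart, 7 members cycled on 5% SY.

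In Clk-Jrk 24 of the 31 cycling members peaked after ZT12, with a mean peak of all 31 at ZT17.9, and 7 peaked before ZT12. ND-B14.5A had the smallest p. In replicate 1 it measured 36.4, 55.4, 61.2, 81.6, 74.8 and 74.2 TPM at ZT2, ZT6, ZT10, ZT14, ZT18 and ZT22, and in replicate 2 it measured 30.4, 36.9, 57.9, 80.4, 94.1 and 96.2 TPM. In both series the ZT2 library was lowest and the 3 night libraries were highest. The fitted amplitude was 25.7 ± 5.26 TPM, 39.6% of the mean, with a peak at ZT17.1 ± 0.78 h (p = 0.0029, adjusted p = 0.482, n = 12). RFeSP measured 63.8, 127, 137, 193, 181 and 148 TPM in replicate 1 and 54.7, 79.9, 128, 145, 183 and 208 TPM in replicate 2. Its amplitude was 55.3 ± 13.4 TPM, with a peak at ZT16.7, and ATPsynE, a small membrane subunit, had 75.0 ± 16.5 TPM and ZT16.8. The 7 day-peaking members were ND-MWFE, UQCR-14, ND-B17.2, ND-15, COX7C, ND-49 and UQCR-6.4. ND-MWFE, an accessory subunit chosen as an example after its values were seen, measured 281, 230, 216, 183, 197 and 224 TPM in replicate 1 and peaked at ZT1.92. Alone, replicate 1 gave 12 cycling members (19.7% of all genes) and replicate 2 gave 3 (6.74%), with 1 shared. Median-of-ratios scaling left 9 of the 62 cycling. With a light-dark step added to the model beside the wave, 6 passed. At these 6 time points the step closely follows the wave, so the lower count does not test whether the rhythms are real. Shares of all genes are not given for these 2 settings.

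**Figure D5:**
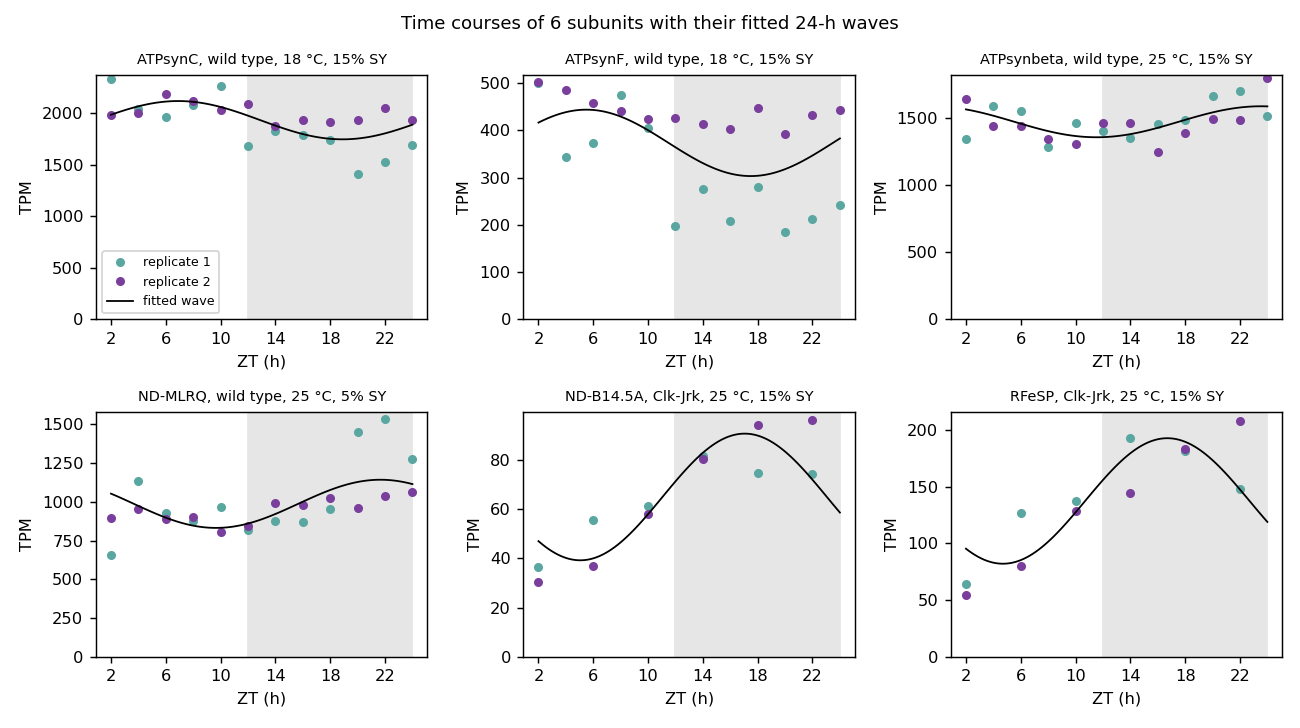
TPM against ZT in hours for 6 subunits, with points coloured by replicate number, the fitted 24-h wave in black and the dark phase in grey. ATPsynF at 18 °C shows the fall of replicate 1 after ZT10 (405 TPM at ZT10, 197 TPM at ZT12) while replicate 2 stays between 392 and 503 TPM, and ND-B14.5A and RFeSP rise from ZT2 into the night in both replicates of Clk-Jrk.

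Differences in rhythm between groups were tested with group by cosine and group by sine terms in limma. For temperature 0 of 62 members passed (lowest adjusted p 0.082; 3 members, ND-13A, ATPsynCF6 and UQCR-6.4, at an unadjusted p below 0.05), against 0.87% of all genes. For diet 0 passed (lowest adjusted p 0.968; 0 at an unadjusted p below 0.05), against 0% of all genes. For genotype 0 passed (lowest adjusted p 0.294; 1 member, ND-B14.5A, at an unadjusted p below 0.05), against 0.0552% of all genes. A larger number of cycling members in Clk-Jrk than in wild type is therefore not shown to be a difference in rhythm.

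Genes around the members gave the context of the pathway. The counts of these short lists are to be read against all genes tested, of which 22% were higher and 28.5% lower at 18 °C, 6.09% higher and 20.5% lower on 5% SY, and 9.67% higher and 36.1% lower in Clk-Jrk. Of 13 tested subunits encoded by mitochondrial DNA 0 changed with temperature (limma; 0 at an unadjusted p below 0.05) and 0 with diet (2 lower at an unadjusted p below 0.05), while 4 were lower in Clk-Jrk and 0 higher. The largest fall was that of mt:ND6, from 59.5 to 460 TPM in wild type at 25 °C to 0.20 to 6.90 TPM in Clk-Jrk, without overlap. mt:ND4L, mt:ND2 and mt:ATPase8 were also lower. The median log2 difference of the 13 in Clk-Jrk was -1.52 in replicate 1 and -0.18 in replicate 2. The lists were read from poly(A)-selected libraries counted without strand, which limits what a level of a mitochondrial transcript means. Of 7 tested nuclear subunits that the name rule misses, 2 were lower at 18 °C (ox of complex III by 0.26 and sun, the epsilon subunit of the ATP synthase, by 0.25), 2 were higher on 5% SY (ox by 0.20 and the cytochrome c gene Cyt-c-p by 0.19), and 5 were lower in Clk-Jrk. Those were levy of complex IV (by 0.93), Cyt-c-p (by 0.60), cype of complex IV (by 0.43), blw, the alpha subunit of the ATP synthase (by 0.40), and Cyt-c1 (by 0.35). By replicate number, 5 of these 7 were higher in replicate 2 in each wild-type group and 0 in Clk-Jrk, while ox differed by -0.22 at 25 °C on 15% SY, a call in the other direction.

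Of 15 listed assembly factors 10 were matched to the table and tested, and of these 5 were lower at 18 °C and 0 higher, with Scox, which delivers copper to cytochrome c oxidase, falling most (by 0.46). On 5% SY 1 was lower (Scox by 0.24), and in Clk-Jrk 1 was lower (Cox17, a copper chaperone, by 0.78). Of 9 tested regulators of mitochondrial biogenesis and transcription 4 were lower at 18 °C and 0 higher: srl, the fly PGC-1 counterpart (by 0.71), Ets97D (by 0.57), TFAM, which packages mitochondrial DNA (by 0.36), and mtTFB1 (by 0.18). srl and Ets97D were also lower on 5% SY (by 0.83 and 0.50), and srl (by 1.16), ewg (by 0.60) and PolrMT (by 0.27) were lower in Clk-Jrk.

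Of 14 tested genes listed for the citric acid cycle and its entry 6 were higher and 3 lower at 18 °C. Ogdh of the oxoglutarate dehydrogenase complex rose most (by 0.58) and ScsbetaG fell most (by 0.48). On 5% SY 2 were higher and 0 lower (Idh, an NADP-dependent isocitrate dehydrogenase, by 0.14 and ScsbetaA by 0.20). In Clk-Jrk 5 were lower, led by kdn, the citrate synthase (by 0.66), and 1 was higher (Fum1 by 0.32). Of 4 tested carriers for ATP and phosphate exchange 1 was higher and 1 lower at 18 °C (Mpcp1 by 0.44 and porin by 0.24), 0 changed on 5% SY, and 3 were lower in Clk-Jrk: the phosphate carriers Mpcp1 (by 0.53) and Mpcp2 (by 0.34) and the ADP/ATP carrier sesB (by 0.24). The genotype counts of these lists moved with median-of-ratios scaling. After it 0 of the 4 carriers, 2 of the 14 citric acid cycle genes and 2 of the 7 missed nuclear subunits were lower in Clk-Jrk, while 4 assembly factors were higher and 1 lower, and 2 biogenesis genes were higher and 2 lower. The count of mitochondrially encoded subunits lower in Clk-Jrk was 4 on that scale too. Within replicates 1 and 2 the median log2 differences in Clk-Jrk were -0.15 and -0.57 for the missed nuclear subunits, -0.03 and -0.31 for the citric acid cycle and -0.14 and -0.41 for the carriers.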

How the data were processed

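Poly(A)-selected libraries were sequenced as single-end reads. The authors aligned them to BDGP6 with an Ensembl annotation with STAR 2.7.10a and quantified genes with RSEM 1.3.1 without strand, and deposited TPM values. Duplicate reads were kept, so strongly amplified transcripts can be over-read. TPM keep no read depth. Positions were taken from Ensembl release 115 of the same assembly, a later annotation than that of the authors. The columns were matched to samples by their labels, with 0 left over. Groups and time points came from the labels. The titles number the time points ZT2 to ZT24 and the protocol text ZT0 to ZT22. The titles were used, so if the protocol text holds instead, ZT values could be shifted.

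Genes with a median above 5 TPM in at least 1 of the 4 groups were tested (7242 genes). Mean levels were compared with limma 3.58.1 in R 4.3.3 on log2(TPM + 1), with group and time point as terms, an intensity trend and Benjamini-Hochberg adjustment over all tested genes. The fold changes are on this log2(TPM + 1) scale. Rhythms were fitted by harmonic regression on TPM with a 24-h period. All 3 comparisons share the wild-type libraries at 25 °C on 15% SY. Scripts were tested on simulated data.

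Named genes were the 6 largest rises and falls per comparison that passed the threshold and had one sign in both replicate series, the highest and lowest member of each complex, complex II and RFeSP, the 3 members with the smallest harmonic p per group, and the L paralogs. Genes named for the gap between replicate numbers, UQCR-14 and ND-MWFE, and the 3 libraries that stood apart were chosen after the values were seen. The members and lists were chosen with earlier results of these data known. Alternatives were other pseudocounts, filters, scalings, time terms, replicate terms and left-out replicates.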

Additional observations from a re-analysis of the deposited data

Results flagged for a closer look

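The difference between replicate 2 and replicate 1 was not the same in Clk-Jrk as in wild type at 25 °C on 15% SY (limma, group by replicate term, 24 libraries). The difference of the gap on the log2(TPM + 1) scale was -1.27 for UQCR-C2, -1.07 for ND-75, -0.84 for ATPsynF, -0.81 for UQCR-C1, -0.77 for ND-30, -0.75 for ND-39, -0.71 for COX5A, -0.62 for ND-ASHI, -0.61 for COX4, -0.57 for ATPsynD, -0.55 for SdhC, -0.50 for ND-42 and -0.40 for ND-51, with adjusted p between 0.027 and 0.0499. All 13 had a smaller gap in Clk-Jrk.

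Between 18 °C and 25 °C in wild type the same term passed for 3 members (48 libraries), with differences of -0.26 for ND-B17.2, -0.25 for ATPsynbeta and -0.22 for ND-49 and adjusted p of 0.047, 0.0089 and 0.040.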

How the results depend on the processing

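The count of members that changed with temperature was 19, and became 7 (3 higher, 4 lower) with median-of-ratios scaling, 12 to 42 without a replicate, and 38 with the replicate number as a block. For diet it was 8, and became 13 with median-of-ratios scaling, 0 to 52 without a replicate, 20 with the replicate block and 54 with the block and median-of-ratios scaling together. For genotype it was 20 (1 higher, 19 lower), and became 2 to 35 without a replicate, 22 with the replicate block and 15 (8 higher, 7 lower) with median-of-ratios scaling. The cause of these moves was not tested beyond the construction of each setting. No shares of all genes are given for fits with the replicate block or the light-dark step, or without the 3 libraries. For the rhythm and gap tests none are given with median-of-ratios scaling either. Counts under those settings are therefore not read as particular to the members. The step closely follows the wave, so a loss of calls with it does not test the rhythm. Same-numbered libraries deviated together (r over 0.1) at 10 of 12 time points for temperature (r from -0.16 to 0.58), 10 of 12 for diet (-0.05 to 0.57) and 1 of 6 for genotype (-0.47 to 0.36), so most wild-type pairs leaned together but the criterion for treating the numbers as pairs, r over 0.1 in every pair, was not met and the fits without the block were used. For a difference in rhythm with temperature, the replicate block gave 2 members against 0. The count of cycling members at 18 °C was 12, and became 45 with the replicate block, 4 with a light-dark step in the model, 4 to 54 without a replicate and 0 with adjusted p below 0.05. At 25 °C on 15% SY it was 4, and became 9 with the replicate block, 1 with median-of-ratios scaling, 1 with the step, 0 to 20 without a replicate and 0 with adjusted p. On 5% SY it was 3, and became 1 on the log2 scale, 1 with median-of-ratios scaling, 1 with the step, 24 to 34 without a replicate, 7 without the 3 libraries and 0 with adjusted p. In Clk-Jrk it was 31, and became 9 with median-of-ratios scaling, 6 with the step, 3 to 12 without a replicate and 0 with adjusted p. The members whose replicate gap differed between groups numbered 3 for temperature (0 with median-of-ratios scaling, 1 without the 3 libraries), 0 for diet (12 and 4) and 13 for genotype (2 and 20). SdhA reversed on diet, from -0.01 to 0.11 with the block and median-of-ratios scaling together. Of the other values of single genes, 460 kept direction and side of the threshold, 43 lost the call and 36 gained it. Precision is limited by the unknown read depth behind each TPM value.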
